A study of Rattus norvegicus with 14 samples.

Results

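This report describes 2360 genomic regions of PCCL3 rat thyroid cells at which the PAX8-PPARG fusion protein (PPFP) gave a ChIP-seq peak of lower fold enrichment close to one of higher fold enrichment. The cells stably expressed human PPFP with a myc tag and were grown with 1 μM pioglitazone, a PPARG agonist, for 16 hours. Chromatin was immunoprecipitated with an antibody to the tag, and 1 ChIP library and 1 input library were sequenced, without replicates. The deposited list, in the rn4 build of the rat genome, holds 20277 PPFP peaks. A peak was called strong if its fold enrichment over the local background was at least 10, which held for 4749 peaks, and weaker otherwise, which held for 15528. A weaker peak whose summit lay within 10 kb of a strong summit on the same chromosome was taken as a flanking peak. This rule selected 2360 peaks, or 15.2% of the weaker peaks (95% exact binomial interval 14.6% to 15.8%) and 11.6% of the whole list. The other 13168 weaker peaks are called distant here. The flanking peaks were chosen by fold enrichment and summit position. Because these measured values set the groups and only 1 ChIP library exists, all values are descriptions and no test was made. The intervals cover counting over peaks or fragments only, and neighbouring peaks are not independent.

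PPFP arises from a chromosomal translocation in thyroid carcinomas and joins PAX8, a paired-domain transcription factor of thyroid differentiation, to nearly all of PPARG, a nuclear receptor that drives adipocyte genes. The fusion can contact DNA through either partner. PPARG binds direct repeats of a short nuclear receptor motif as a heterodimer with RXR, and PAX8 binds longer sites through its paired domain. Enhancers and promoters often hold several binding sites within a few kilobases, and a ChIP-seq peak list can therefore contain clusters of peaks of unequal height. Immunoprecipitation was done with pioglitazone only, so no peak can be compared between conditions. The peaks could not be set beside genes, motifs or the RNA-seq libraries of the series here, because no rn4 genome or gene annotation was used.

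Flanking peaks crowded around strong summits. The windows of 10 kb to each side of the strong summits covered 85.9 Mb, or 3.19% of the 2696 Mb between the first and the last peak of each chromosome, and held 27.5 weaker peaks per Mb. The rest of that span held 5.05 weaker peaks per Mb, so that the density beside strong peaks was 5.44 times as high (interval 5.21 to 5.69). Assembly gaps and sequence where reads cannot be placed were not taken out of the span. Their effect on the densities, density ratios and chromosome means given here was not tested. No weaker summit lay within 250 bases of a strong summit, and 48 lay between 250 and 500 bases away, 20.3 per Mb. Called regions do not overlap and strong peaks had a median width of 565 bases, so room for a second summit this close was limited. The density was highest from 500 bases to 1 kb, with 338 peaks and 72.7 per Mb (interval 65.2 to 80.9). It was 53.2 per Mb from 1 to 1.5 kb, 29.5 from 2 to 3 kb and 18.2 from 8 to 10 kb.

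The decline went on without a step at 10 kb. From 10 to 12 kb the density was 16.8 weaker peaks per Mb (interval 14.9 to 19.0), which overlaps the interval of 16.1 to 20.4 from 8 to 10 kb. It was 11.1 per Mb from 30 to 50 kb, 7.15 from 100 to 200 kb and 1.45 from 1000 to 2000 kb. The limit of 10 kb thus cuts a continuous distribution. The flanking peak farthest from its strong summit, at chr14:79382701-79382902, lay 9999 bases away, and the next, at chr5:63659349-63659635 and chr12:32237290-32237490, lay 9997 and 9986 bases away. Just outside the limit, the peaks at chr19:51118885-51119167, chr1:230343816-230344112 and chr1:213500807-213501206 lay 10010, 10019 and 10024 bases from a strong summit.

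**Figure D1:**
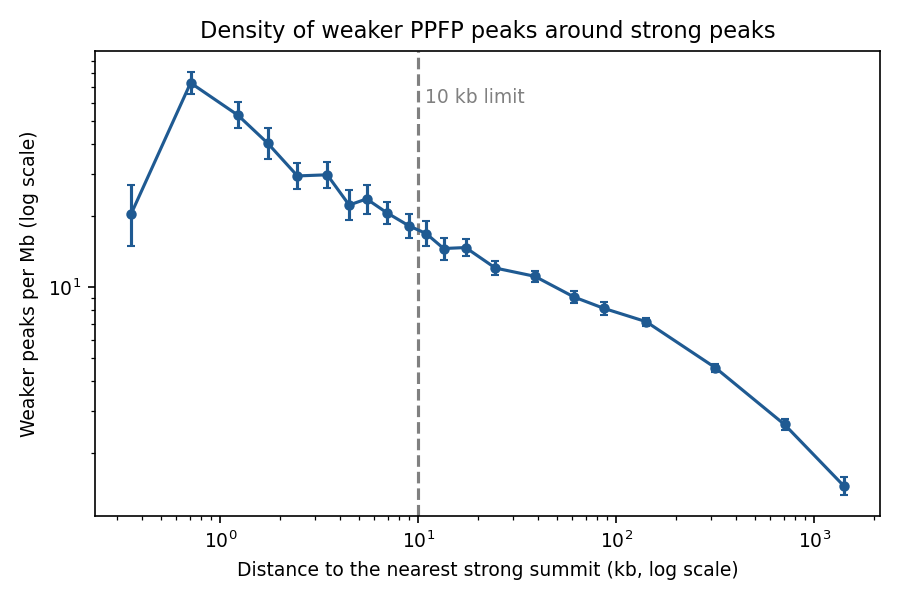
Density of weaker PPFP peaks per Mb (log scale) against the distance to the nearest strong summit in kb (log scale); points are distance classes, bars are 95% Poisson intervals and the dashed line is the 10 kb limit. The density was highest from 0.5 to 1 kb, at 72.7 per Mb, and fell to 1.45 per Mb from 1000 to 2000 kb with no step at the dashed line. The class below 0.25 kb held no peak and is not drawn.

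The median distance between a flanking summit and the nearest strong summit was 3360 bases (interval 3197 to 3566), with an interquartile range of 1412 to 6250 bases. Within 1 kb lay 386 flanking peaks (16.4%), within 2 kb 812 (34.4%) and within 5 kb 1525 (64.6%). Regions of 1 MACS2 call cannot overlap, since the caller joins enriched stretches that touch or nearly touch. The gap between the edges of a flanking peak and its strong peak was at least 53 bases, with a median of 2897 bases. The strong summit lay at the higher coordinate for 1159 flanking peaks and at the lower coordinate for 1201 (49.1% and 50.9%). These sides are those of the genome coordinate and not of a gene or motif. A single strong summit was within reach of 2032 flanking peaks, 2 strong summits were within reach of 300, and more than 2 of 28. Between strong summits on both sides lay 154 flanking peaks, or 6.53%.

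Strong peaks were not the only peaks with company. Of the 4749 strong peaks, 1946 (41.0%, interval 39.6% to 42.4%) had at least 1 weaker peak within 10 kb, with a mean of 0.573 weaker peaks per strong peak. This was 4.59 times the number given by the mean density of weaker peaks on the same chromosomes. Of the weaker peaks, 34.0% (interval 33.2% to 34.7%) had another weaker peak within 10 kb, with a mean of 0.465 per peak, which was 3.75 times the number given by the chromosome mean. Strong peaks had another strong peak within 10 kb in 18.5% of cases, with a mean of 0.222 per peak, which was 5.81 times the number given by the chromosome mean. Peaks of every class therefore had more neighbours than the chromosome mean gives, and the ratio was lowest for weaker peaks around weaker peaks.

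The share of peaks with a weaker neighbour changed with the fold enrichment of the peak itself. It was 36.6% (interval 34.1% to 39.0%) for strong peaks with a fold enrichment of 10 to 12, 43.9% (interval 40.8% to 47.0%) for those of 15 to 20 and 46.7% (interval 39.0% to 54.6%) for the 167 peaks above 30. Among weaker peaks the share with another weaker peak was 38.9% below a fold enrichment of 4, 31.0% from 6 to 7 and 34.3% from 8 to 9. The share of weaker peaks that were flanking peaks followed a similar course, with 18.5% below 4 (interval 15.8% to 21.4%), 13.8% from 6 to 7 (interval 12.6% to 15.1%) and 15.7% from 9 to 10 (interval 13.7% to 17.9%). Flanking peaks were themselves near other weaker peaks in 49.9% of cases (interval 47.8% to 51.9%), against 31.1% of distant peaks (interval 30.3% to 31.9%).

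**Figure D2:**
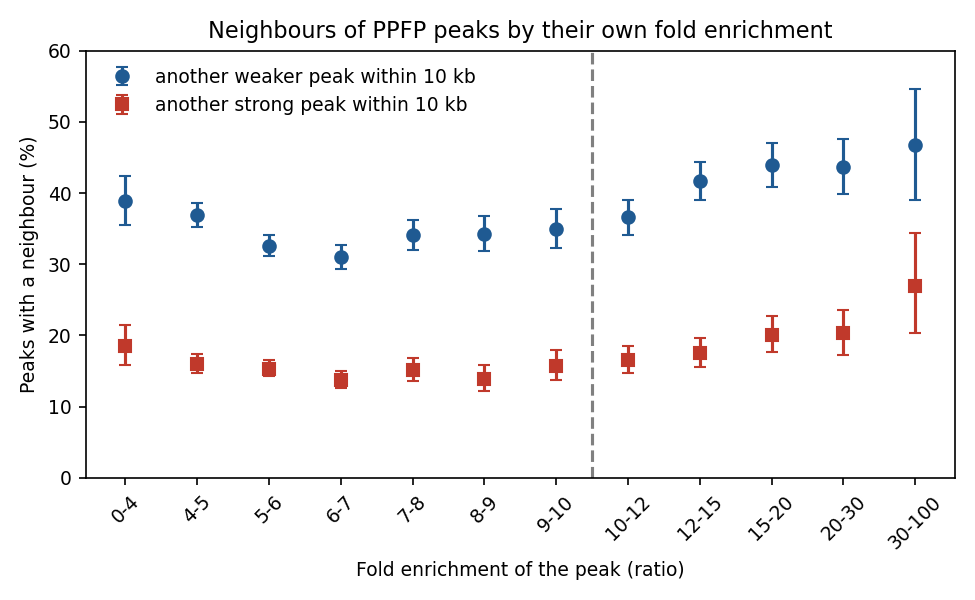
Share of PPFP peaks (%) with another weaker peak (circles) or another strong peak (squares) within 10 kb, by the fold enrichment of the peak itself; bars are 95% exact binomial intervals and the dashed line separates weaker from strong peaks. The share with a weaker neighbour was lowest, at 31.0%, for fold enrichments of 6 to 7 and reached 46.7% above 30.

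The height of each peak in fragments could be read back from the deposited values. MACS2 gives the fold enrichment as the ChIP fragments over the summit plus 1, divided by the local background plus 1, and a Poisson p for the same quantities. For 20274 of the 20277 peaks, and for all 2360 flanking peaks, a whole number of fragments and a background matched both deposited values, with -log10 p within 1e-04. For 4 of these peaks, none of them flanking, a second height also lay within this tolerance, and the closer one was used. The background of MACS2 is set from the input library around the peak and has a genome-wide minimum, here 0.723 fragments. These heights give the depth behind each peak and separate a low signal from a high background.

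Flanking peaks were slightly taller than distant peaks but had a slightly lower fold enrichment. Their median summit height was 14 fragments (interquartile range 11 to 18, range 6 to 74), against 13 fragments for distant peaks (interquartile range 10 to 17, range 6 to 169) and 33 for strong peaks. Their median fold enrichment was 5.83 (interval 5.78 to 5.97), against 6.003 (interval 5.95 to 6.01) for distant peaks. The values of both groups overlapped almost fully, with interquartile ranges of 4.92 to 7.30 and 5.05 to 7.38. Median -log10 q was 6.80 in flanking peaks and 6.78 in distant peaks. Only 9 flanking peaks (0.381%) and 47 distant peaks (0.357%) had a q of 0.01 to 0.05.

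The local background was higher at flanking peaks. Its median was 1.42 fragments (interval 1.33 to 1.504) in flanking peaks and 1.33 in distant peaks, and the means were 1.64 ± 0.754 (SD over 2360 peaks) and 1.48 ± 0.957 (SD over 13168 peaks). The background was at its genome-wide minimum in 65 flanking peaks, or 2.75% (interval 2.13% to 3.50%), and in 984 distant peaks, or 7.47% (interval 7.03% to 7.94%). Read the other way, 6.196% of the weaker peaks at the minimum were flanking peaks, 13.8% of those with a background of 0.9 to 1.1, 21.2% in the class just below 3 and 19.8% of those over 3. The share of flanking peaks also went from 11.8% among weaker peaks of at most 9 fragments to 19.4% among those of 21 to 25 fragments, and was 17.2% among those of 26 to 35. Flanking peaks had a median width of 310 bases (interval 304 to 315), compared with 297 bases (interval 295 to 300) in distant peaks and 565 in strong peaks.

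The medians were also compared within each chromosome, with backgrounds that differed by at most 0.001 fragments counted as equal. The median background was higher in flanking than in distant peaks on 16 of 21 chromosomes, by under 0.01 fragments on 4 of them, equal on 4 and lower on 1. The median width was higher on 18 and lower on 3. Median fold enrichment was lower in flanking peaks on 16 chromosomes and higher on 5. Median height was higher on 13, equal on 7 and lower on 1, and median -log10 q was lower on 13 and higher on 8.

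Height, background and width went on changing with distance beyond 10 kb. Weaker peaks 10 to 20 kb from a strong summit had a median height of 14 fragments, a median background of 1.33 and a median width of 313 bases, the height of flanking peaks and a width within their interval. Those more than 1000 kb away, 765 peaks, had a median height of 12 fragments, a median background of 0.890 and a median width of 272 bases, and 28.9% of them were at the minimum background. Median fold enrichment stayed between 5.97 and 6.02 in all classes beyond 10 kb.

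The flanking peaks nearest to a strong summit had the lowest medians. Their width is bounded by the strong region beside them, since a peak that reached it would have been called as part of it. The 48 peaks within 500 bases had a median fold enrichment of 5.24 (interval 4.83 to 5.58), a median height of 11 fragments (interval 10 to 12) and a median width of 229 bases (interval 203 to 262). Of these, 15 (31.2%, interval 18.7% to 46.3%) had the minimum width in the list, 201 bases, which held for 8.60% of all flanking peaks and 9.82% of distant peaks. From 500 bases to 1 kb the medians were 5.65, 13 fragments and 305 bases, and from 1 to 2 kb they were 5.85, 14 fragments and 323 bases.

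**Figure D3:**
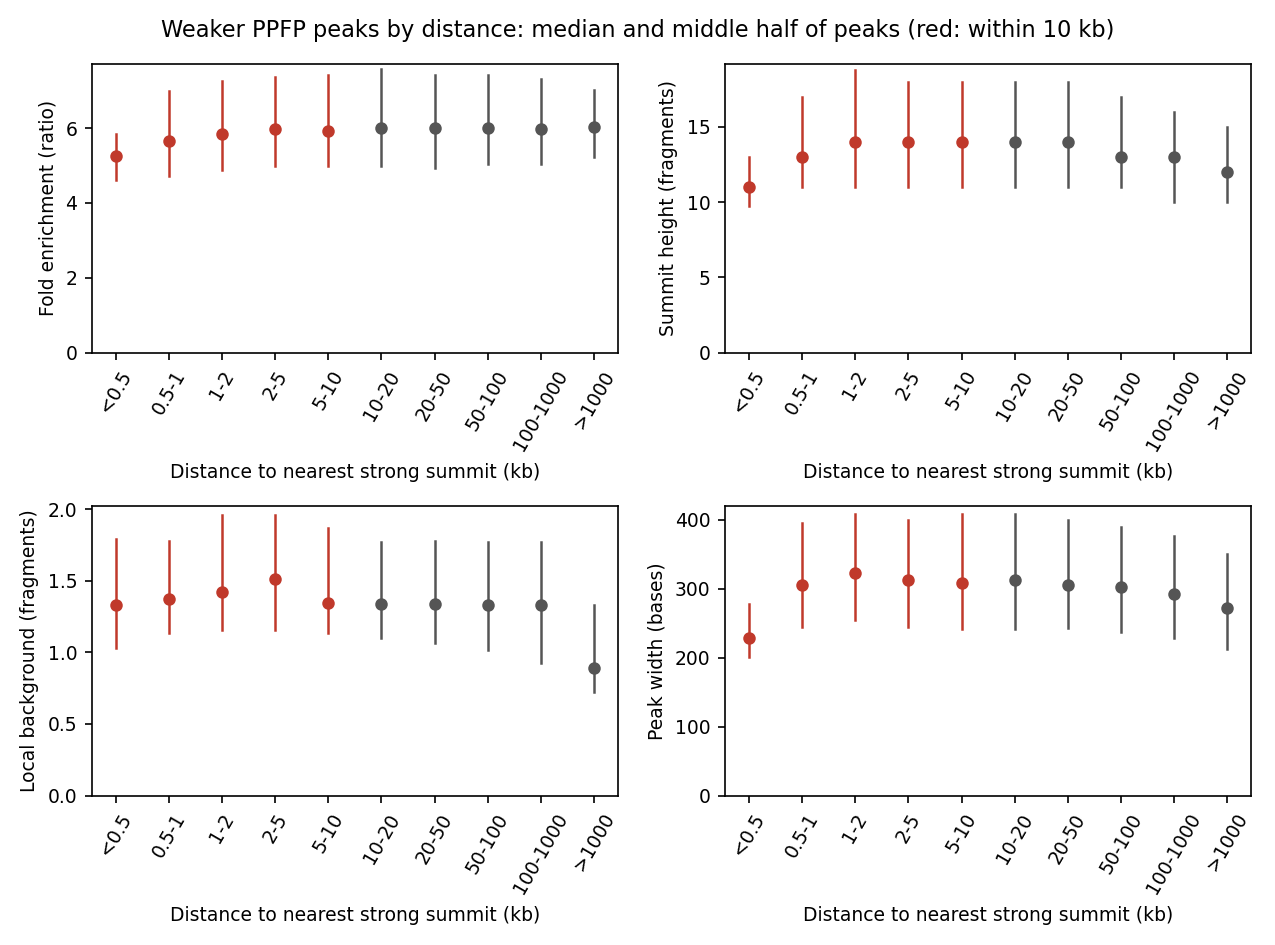
Fold enrichment (ratio), summit height (fragments), local background (fragments) and width (bases) of weaker PPFP peaks by distance to the nearest strong summit; points are medians, lines are interquartile ranges, and red marks the classes within 10 kb. Peaks within 500 bases had the lowest medians of fold enrichment (5.24), height (11 fragments) and width (229 bases), and the median background was lowest, 0.890 fragments, beyond 1000 kb.

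The 5 closest pairs show this at single regions. The flanking peak at chr1:42351244-42351448 had its summit 296 bases from that of chr1:42350839-42351188. It had 9 fragments and a fold enrichment of 5.27, whereas the strong peak had 28 fragments and 13.4. At chrX:56178508-56178708, 304 bases from a strong summit, 6 fragments gave a fold enrichment of 3.71 and a -log10 q of 1.89, beside 18 fragments in the strong peak. The peaks at chr15:46922137-46922337, chr1:22106634-22106834 and chr5:144091005-144091205 had 8, 9 and 9 fragments and lay 320, 323 and 330 bases from strong summits of 26, 24 and 41 fragments. All but the first were 201 bases wide.

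At the other end, some flanking peaks were almost strong. The highest fold enrichment was 10.0 when rounded (9.996), at chr1:119839205-119839478, which had 17 fragments over a background of 0.801. Its strong neighbour, 856 bases away, had a fold enrichment of 10.7 and 24 fragments. It was followed by chr18:38143132-38143452 with 25 fragments and chr4:125873434-125873930 with 20 (fold enrichments 9.995 and 9.985). The peaks at chr11:41626731-41627160 and chr3:18783690-18783973 had 19 and 18 fragments and fold enrichments of 9.973 and 9.961. On the strong side of the limit, chr10:85964440-85964848 had a fold enrichment of 10.003 from 26 fragments, and chr10:72061835-72062801 and chr13:83134004-83134553 had 10.004 from 40 fragments each. A height of 17 fragments has a 95% Poisson interval of 9.90 to 27.2, and one of 26 an interval of 16.98 to 38.1. The 3 lowest fold enrichments of flanking peaks, a choice made after their values were seen, were 2.81, 2.93 and 3.01, at chr1:78528635-78528858, chr4:123267039-123267250 and chr1:190747385-190747585. They had 13, 11 and 10 fragments over backgrounds of 3.98, 3.10 and 2.66.

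Since fold enrichment set the groups, a flanking peak had by selection a lower fold enrichment than its strong neighbour, and mostly a lower height. The median ratio of the heights was 0.391 (interval 0.379 to 0.400, interquartile range 0.281 to 0.528). It was at least 0.5 in 719 flanking peaks (30.5%) and under 0.25 in 413 (17.5%), and 44 flanking peaks (1.86%) had more fragments than their strong neighbour. Across the 2360 flanking peaks the fold enrichments of both members of a pair had a Pearson's r of 0.014 and a Spearman's rho of -0.0064, over ranges that the rule cut at 10 for both. Heights had an r of 0.25 and a rho of 0.18, and backgrounds an r of 0.50 and a rho of 0.42. These values are descriptions across regions of 1 library. The peaks of a pair lie within 10 kb of each other and come from the same libraries, and 482 strong peaks enter more than once. Since the background is set from the input around each peak, the backgrounds of close peaks can rest on the same input reads. The background of a flanking peak was above that of its strong neighbour in 1102 pairs, below it in 1070 and the same, within 0.001 fragments, in 188. Strong peaks that were the nearest to a flanking peak had a median fold enrichment of 14.03 and 34 fragments, and the others had 13.4 and 32.

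The flanking peaks of the 5 strongest neighbours had 11 to 20 fragments, within the range common to flanking peaks. Beside the strong peak at chr4:171487582-171488745, which had 197 fragments and a fold enrichment of 61.6, the flanking peak at chr4:171482491-171482761 had 11 fragments and 5.45, at a distance of 5560 bases. The next, chr1:190161369-190162601 with 137 fragments and 54.9, had 3 flanking peaks. These were chr1:190158265-190158465, 3433 bases away, chr1:190159224-190159643, 2310 bases away, and chr1:190163155-190163515, 1588 bases away, with 16, 13 and 15 fragments. The first of them had a background of 3.98 and a fold enrichment of 3.41, and the others had a background of 1.51 and fold enrichments of 5.57 and 6.37. The strong peak at chr2:189511209-189512122 (105 fragments) had a flanking peak of 13 fragments at chr2:189509955-189510312. At chr10:103563222-103564651, with 161 fragments, the flanking peaks at chr10:103559614-103559907 and chr10:103560107-103560317 had 20 and 11. The peak of 143 fragments at chr7:68470232-68471113 had 1 of 16 fragments only 637 bases away, at chr7:68469932-68470176.

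Flanking peaks were spread over 1735 strong peaks (36.5% of all strong peaks) when each was counted with its nearest. Of those, 1253 had 1 flanking peak, 374 had 2, 77 had 3, 27 had 4 and 4 had 5. The arrangement around the 4 strong peaks with 5 differed from place to place. Around chr13:80222548-80223207 (76 fragments, fold enrichment 28.6) the 5 flanking peaks had 13, 20, 21, 13 and 11 fragments in order of position, 1 before and 4 after the strong summit. Around chr11:71644669-71645704 (71 fragments) they had 23, 17, 13, 14 and 15 fragments over backgrounds of 2.66 to 3.10, 3 before and 2 after. The strong peak at chr3:157234252-157234993 had 27 fragments, and its flanking peaks had 8, 10, 17, 13 and 20. At chr8:65406580-65407745 the strong peak had 19 fragments over a background of 0.885, which gave a fold enrichment of 10.6. There, 2 of the 5 flanking peaks were taller, with 24 and 26 fragments over a background of 1.77 and fold enrichments of 9.02 and 9.75, and the other 3 had 9, 7 and 8 fragments. The fifth strong peak shown, 1 of the 27 with 4, was chr1:97146486-97146912, with 48 fragments and flanking peaks of 13, 11, 16 and 21 fragments.

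**Figure D4:**
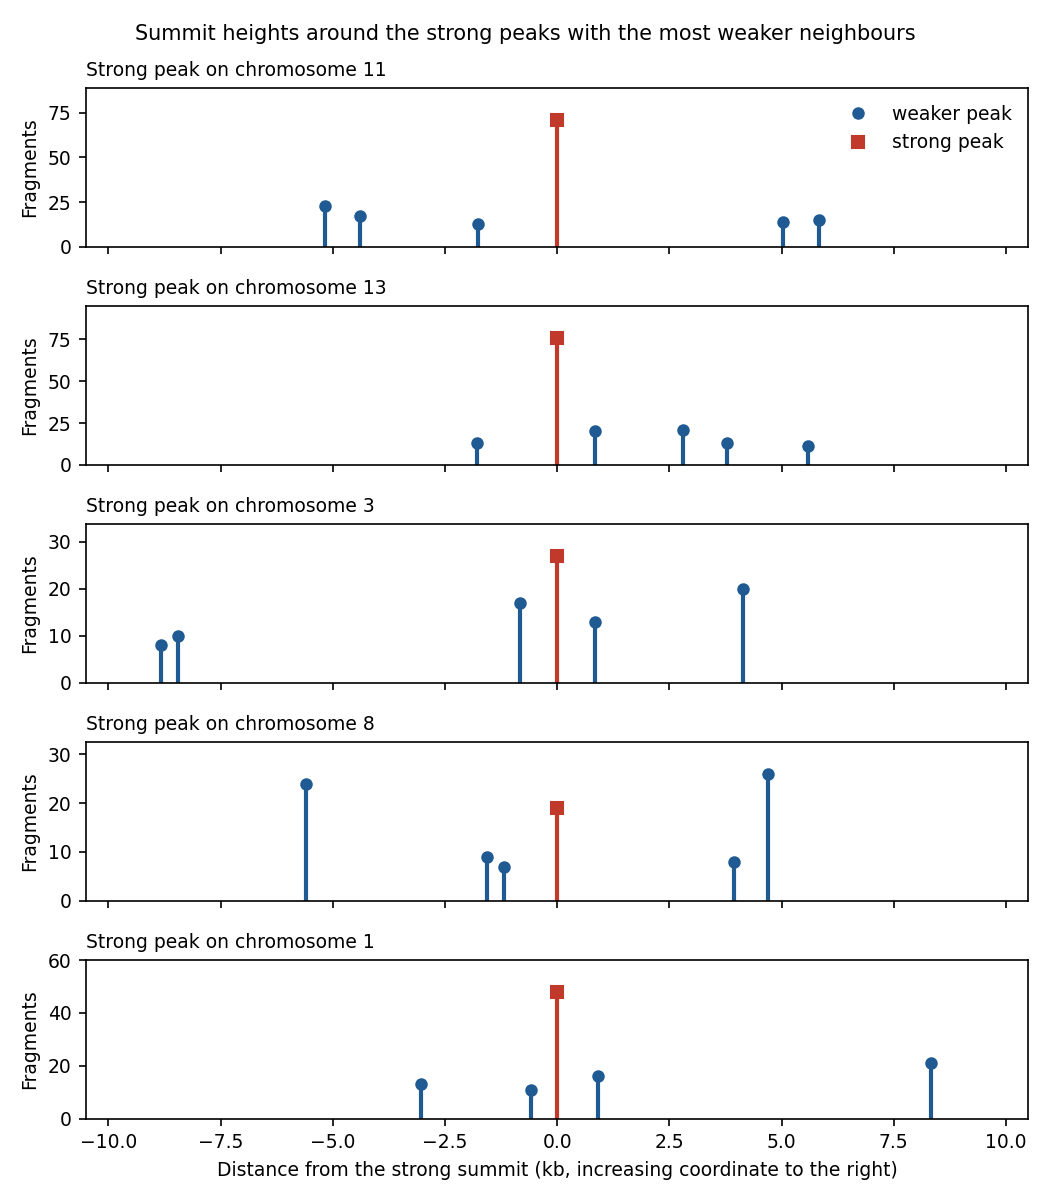
Summit heights in fragments of flanking PPFP peaks (circles, each counted with its nearest strong peak) around the 5 strong peaks (squares) with the most of them, against the distance from the strong summit in kb. The strong peak had the most fragments in 4 of the 5 places, and on chromosome 8 its 19 fragments were exceeded by flanking peaks of 24 and 26.

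The 5 widest flanking peaks were broader than the median strong peak. They were chr1:42134495-42135708 with 1214 bases, chr5:62073551-62074690 with 1140, chr6:25751052-25752076 with 1025, chr4:120680783-120681785 with 1003 and chr7:99106909-99107863 with 955, against a median of 565 bases in strong peaks. Their heights were 23, 18, 35, 25 and 26 fragments and their fold enrichments were between 7.39 and 9.85. The third of these had more fragments than its strong neighbour at chr6:25747814-25748144, which had 23 over a background of 1.21 compared with 2.66.

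Chromosomes differed in the share of flanking peaks. It ranged from 10.1% on chromosome X (30 of 297 weaker peaks, interval 6.92% to 14.1%) to 18.9% on chromosome 19 (80 of 424, interval 15.3% to 22.9%), with a median of 14.9%. Chromosome 7 had 18.4% (198 of 1079) and chromosome 1, with the most flanking peaks, 16.2% (281 of 1735). The density of weaker peaks within 10 kb was above that elsewhere on all 21 chromosomes. The ratio ranged from 3.74 on chromosome 10 (interval 3.17 to 4.38) to 6.40 on chromosome 11 (interval 5.03 to 8.08) among the autosomes. It was 12.9 on chromosome X (interval 8.55 to 18.9), where strong peaks were fewest per Mb (0.451) and the windows covered 0.862% of the span. Chromosome X was also the only chromosome on which flanking peaks had a lower median height than distant peaks, 9 against 11 fragments.

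**Figure D5:**
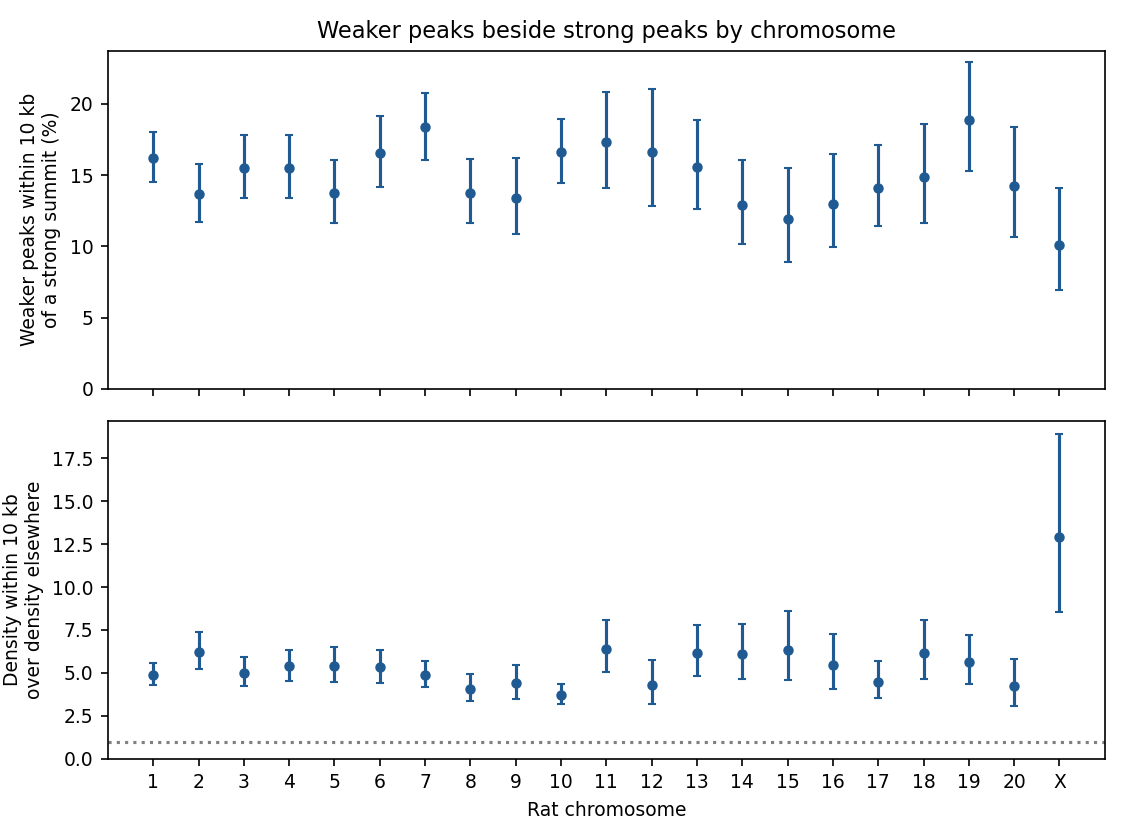
Share of weaker PPFP peaks within 10 kb of a strong summit (%, upper panel) and the ratio of the density of weaker peaks within 10 kb to that elsewhere (lower panel) on each rat chromosome; bars are 95% exact binomial intervals and the dotted line marks a ratio of 1. The share was lowest on chromosome X, at 10.1%, while its density ratio was the highest, at 12.9.

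Overlap with peaks of the input library was rare in every group of PPFP peaks. Peaks in input DNA can mark places where reads pile up without immunoprecipitation. PPFP peaks were called against the same input, so a place with many input reads had a high background. A low overlap was thus favoured by the calling itself, and the share that random placement would give was not computed. The deposited input peaks number 3192, with a median width of 69 bases. A single flanking peak overlapped one of them by at least 1 base, 0.0424% (interval 0.00107% to 0.236%), against 4 distant peaks (0.0304%) and 3 strong peaks (0.0632%). It lay at chr1:33743815-33744205 and was the tallest of all flanking peaks, with 74 fragments (Poisson interval 58.1 to 92.9). Its background was 10.18 fragments and its fold enrichment 6.71, and its strong neighbour 1803 bases away at chr1:33741976-33742509 had 134 fragments over 3.78. The PPFP list itself had been filtered by the authors, and of the numbers up to 22048 that MACS2 gave the peaks in order of position, 1771 (8.03%) were missing from it. A missing number fell between a flanking peak and its strong neighbour in 7 of 2360 cases (0.297%). These pairs span short stretches, and the rate of missing numbers per length was not computed. The share can therefore not be set beside the 8.03%.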

How the data were processed

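The authors aligned ChIP and input reads to rn4 with BWA 0.5.9-r16 and called PPFP peaks with MACS2 2.0.10.20131216beta against the input at a q under 0.05. They filtered the list with PePr 1.0.5 against artifacts of PCR duplication. Each deposited peak has a fold enrichment, which is a ratio at the summit, a -log10 p and a -log10 q. Deposited input peaks have the same columns; what they were called against is not given in the sources used here. The 4 last columns of the PPFP list have no stated meaning and were not used, and neither were the RNA-seq counts of 12 libraries. No read totals were used; the recovered summit heights give the depth.

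Intervals were computed with scipy 1.17.1 and tables with pandas 2.3.3 and numpy 2.4.6, plots were drawn with matplotlib 3.10.9, and all ran under Python 3.11.15. Strong peaks had a fold enrichment of at least 10, and flanking peaks lay within 10 kb, summit to summit. Heights and backgrounds were solved from fold enrichment and p, with a tolerance of 1e-04 in -log10 p, and the method was tested on simulated data. Shares have 95% exact Clopper-Pearson intervals, densities exact Poisson intervals, density ratios the binomial interval of the share carried over, and medians order-statistic intervals. Coordinates are 1-based. Regions were named by extremes of fold enrichment, distance and width, by input overlap and by their strong neighbours. The members, limits and lists were chosen with earlier results of these data known. The rn4 gene and motif parts of the plan were not run.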

Additional observations from a re-analysis of the deposited data

How the results depend on the processing

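Of 57 values under 10 alternatives, 37 stayed within the interval of the value given above (for the number of peaks, within 1.5 times) and 20 moved. Several could hardly move, since a q under 0.01 left 2351 flanking peaks and leaving out input overlaps left 2358. With strong peaks taken from a fold enrichment of 8, the share of flanking peaks was 20.8%, their median fold enrichment 5.57 and their median width 289 bases. From 15, there were 1260 flanking peaks, a share of 6.83%, with medians of 6.26 and 347 bases. Within 5 kb there were 1525 (9.82%), with a density ratio of 6.46 and a median distance of 1854 bases. Within 20 kb there were 3509 flanking peaks, which still counted as within 1.5 times. There the share was 22.6%, the ratio 4.56 and the median distance 6175 bases. With at least 1 kb between summits, the 386 closer peaks counted as elsewhere, the share was 12.7%, the ratio 4.98 and the median distance 4155 bases. Counts, shares, distances and fold enrichments move with these limits by construction (the distant median was 5.602 at a limit of 8 and 6.401 at 15), and the cause of the shift in width was not tested. The density ratio stayed between 4.56 and 6.46. The overlap with input peaks was 0% without overlapping PPFP peaks, by definition, and also with the summit inside the input peak and with 50% of the PPFP peak overlapped. A q under 0.01 and a gap between peak edges moved no value, but no density ratio was computed for the latter. In the 8 alternatives that change the peaks or the groups, the median background was higher and the median fold enrichment lower in flanking than in distant peaks. All peaks lay on assembled chromosomes, so leaving out unplaced sequences changes nothing. The alternatives for genes were not run. No paired analysis was possible because ChIP and input had 1 library each and the RNA-seq replicates were not used. Depth limits the precision of single peaks: 14 fragments have a Poisson interval of 7.65 to 23.5.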

Other observations

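A few flanking peaks were tall but stood on a high background, and were chosen here after their values were seen. The background was over 5 fragments in 12 flanking peaks (0.508%, interval 0.263% to 0.887%), 31 distant peaks (0.235%, interval 0.160% to 0.334%) and 6 strong peaks (0.126%). Of the 12, 4 were on chromosome 3 and 3 on chromosome 1. On chromosome 3, the flanking peaks chr3:361347-361611 and chr3:363116-363771 had 39 and 69 fragments over backgrounds of 10.6 and 7.03. Both lay beside chr3:361696-362702, whose 259 fragments over 15.5 gave a fold enrichment of 15.8. Farther along, chr3:658082-658390 and chr3:658479-658751 had 30 and 34 fragments over 7.97 and 7.56. More than 50 fragments were seen in 3 flanking peaks (0.127%), at chr1:33743815-33744205, chr3:363116-363771 and chr10:90877239-90877810, with 74, 69 and 53, and in 16 distant peaks (0.122%).

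Missing peak numbers between close neighbours were few for pairs of any strength. Close pairs span little sequence, and the number given by the mean density of missing numbers was not computed. Among consecutive peaks within 10 kb, a number was missing in 6 of 2075 pairs of a weaker and a strong peak (0.289%, interval 0.106% to 0.628%), in 6 of 2800 pairs of weaker peaks (0.214%, interval 0.0787% to 0.466%) and in none of 378 pairs of strong peaks (interval up to 0.971%).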
